A study of Mus musculus with 5 samples.

Results

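The glycolytic enzymes examined here were 10 genes chosen by name (Hk1, Hk2, Gpi1, Pfkl, Aldoa, Gapdh, Pgk1, Eno1, Pkm and Ldha), out of 24046 gene symbols measured by bulk RNA sequencing of sorted mouse hematopoietic stem cells (HSCs). The rule used no measured value, all 10 were present in the table, and all 10 passed the filter on low values that left 13661 genes for testing. WT libraries (n = 3) came from donor marrow of the genotype Syncrip flox/flox, Mx1 Cre-, and KO libraries (n = 2, numbered KO 2 and KO 3) from Syncrip flox/flox, Mx1 Cre+ marrow. Both groups thus carried the floxed alleles of Syncrip, which encodes an RNA-binding protein, and both received pIpC, an interferon inducer that switches on Cre under the Mx1 promoter. That promoter answers to interferon in many cell types, so recombination was not limited to HSCs. Donor marrow was transplanted into CD45.1 congenic hosts, and CD45.2+, Lin-, Sca1+, cKit+, CD150+, CD48- cells were sorted 9 weeks after transplantation and 3 weeks after pIpC. The sources used here did not state a background strain for the donors or how many mice stood behind each library, so p-values measure only the spread between these libraries, which may be partly technical.

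Glycolysis splits glucose into pyruvate in the cytosol and yields ATP without oxygen. Hexokinases trap glucose as its phosphate, phosphofructokinase commits it to the pathway, aldolase splits the sugar, and the later enzymes harvest ATP and NADH before pyruvate kinase and lactate dehydrogenase close the route. Long-term HSCs are known for their reliance on glycolysis and for low mitochondrial respiration, and many glycolytic genes are classical targets of hypoxia-inducible factors (HIFs). The comparison of KO with WT libraries asked how loss of Syncrip altered the transcriptome of these cells.

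The values were normalized read counts, that is, reads per gene divided by a size factor of the library. Recovered depth ran from 21748781 to 22779536 reads for WT, with 18308876 for KO 2 and 12539599 for KO 3, and depth and genotype went the same way. Syncrip itself stood at 1944, 1440 and 1794 in the WT libraries and at 294 and 343 in KO 2 and KO 3. All 10 HSC genes checked were detected in every library (Kit at 8007 to 10741, Procr at 152 to 527). Ptprc, the gene of CD45, alone among them had both KO values beyond all WT values. It stood at 3735 to 4635 in WT, 2010 in KO 2 and 1271 in KO 3 (limma log2 fold change -1.42, adjusted p = 0.0815, DESeq2 adjusted p = 1.7e-05). Yet all 10 neutrophil and myeloid markers were detected too, and made up 6.03% to 7.20% of all normalized counts in WT, 5.34% in KO 2 and 2.60% in KO 3. Of these, Ngp, Camp, Ltf and Lcn2 had both KO values below all WT values. Elane and Prtn3 stayed within their WT ranges in KO 3 (71897 and 23797) and exceeded them in KO 2 (107246 and 36288). Itgam, whose product the lineage gate selects against, stood at 7074 to 11353 in WT, 5158 in KO 2 and 2313 in KO 3. Cd48, whose product the sort also selected against, stood at 601 to 768 in WT, 459 in KO 2 and 191 in KO 3. Adipocyte and brown adipocyte markers summed to 30950 in KO 2, with none of the 12 at 0, against 355 to 746 in WT and 220 in KO 3, where 7 of the 12 were at 0. The 10 muscle markers summed to at most 436 in any library, the 8 lymphoid ones to at most 633 and the 9 stroma ones to at most 3290 (WT 2), while the 8 erythroid ones measured made up 0.0553% to 0.0898% of counts in both groups. In such bulk samples, fewer cells of a type and less RNA per cell cannot be told apart.

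Ldha, Pkm and Aldoa were the most abundant of the 10 transcripts in WT HSCs and Hk2 by far the least, when normalized counts were divided by the length of the longest annotated transcript. Per kilobase, Ldha (converts pyruvate to lactate) stood at 12483 ± 1062 (SD, n = 3) and Pkm (pyruvate kinase) at 11976 ± 1216 (SD, n = 3), and their WT ranges overlapped. Aldoa (aldolase) followed at 9374 ± 331 (SD, n = 3), below all Pkm values. Gpi1, which interconverts glucose and fructose phosphates, was at 7729 ± 1058 per kilobase and Eno1 (enolase) at 6967 ± 789 (SD, n = 3 each), again with overlapping ranges. Gapdh (4011 ± 234), Hk1 (2289 ± 270) and Pfkl (1068 ± 154) came next without overlap, while Pgk1 (901 ± 110) overlapped with Pfkl (SD, n = 3 each). Hk2 closed the order at 176 ± 23.8 per kilobase (SD, n = 3). Measured against the longest coding transcript instead, which for Gapdh is 1420 rather than 3289 bases, Gapdh stood at 9290 ± 542 (SD, n = 3) and moved from the 6th to the 4th place. The order in KO was the same as in WT except that Eno1 (7997 ± 1411 per kilobase) passed Gpi1 (6696 ± 1919; SD, n = 2 each), a switch smaller than the KO spread.

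**Figure D1:**
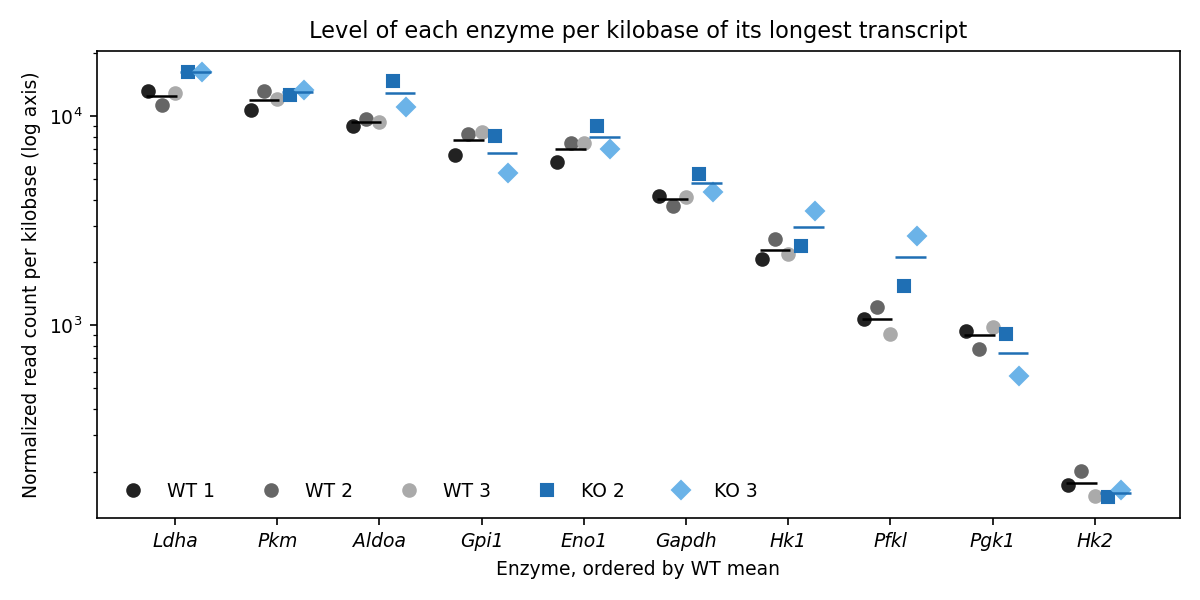
Normalized read count per kilobase of the longest transcript (log axis) for the 10 enzymes, ordered by WT mean. Points are single libraries (circles WT, square KO 2, diamond KO 3) and short lines are group means. Ldha leads at a WT mean of 12483 per kilobase and Hk2 is last at 176.

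For most steps a single isozyme carried nearly all of the transcript, whereas hexokinase and phosphofructokinase were mixed. On the per-kilobase scale, Aldoa made up 99.6% of the aldolase genes, Gapdh 98.9% of its step, Eno1 98.5% of the enolases named apart from Eno1b, Pkm 96.8% of pyruvate kinase and Ldha 95.5% of lactate dehydrogenase (WT means over 3 libraries). KO means for these 5 steps were 99.6%, 99.3%, 98.7%, 97.5% and 94.3%. Hexokinase was divided between Hk1, at 46.4%, 39.2% and 38.9% in WT 1, WT 2 and WT 3, and the myeloid-type isozyme Hk3, at 49.8%, 57.7% and 58.4%. In KO 2 the shares were 40.9% for Hk1 and 56.5% for Hk3, within the WT range, but in KO 3 they were 60.3% and 36.8%, outside it. Though Elane and Prtn3 lay inside their WT ranges in it, KO 3 was also the library with the lowest summed share of neutrophil and myeloid markers (2.60%). The part of those markers in the hexokinase shares was not tested. Hk2, the insulin- and hypoxia-responsive hexokinase, held 2.59% to 3.83% of the step in all 5 libraries.

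Pfkl, the liver-type subunit of phosphofructokinase, was the main isozyme of that step. Its share was 57.9%, 58.0% and 49.0% in the 3 WT libraries, 59.2% in KO 2 and 74.6% in KO 3. Both KO values lay above all WT values, KO 2 by a narrow margin. The muscle-type Pfkm held 30.8% to 40.5% among WT libraries, 32.5% in KO 2 and 18.7% in KO 3, and its groups overlapped. Platelet-type Pfkp held 10.02% to 11.3% in WT against 8.35% and 6.72% in KO, without overlap. By the longest coding transcript, Pfkp held 18.9% to 21.1% in WT and 16.0% and 13.1% in KO, and Pfkl 43.9% to 52.3% in WT and 54.2% and 69.5% in KO.

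**Figure D2:**
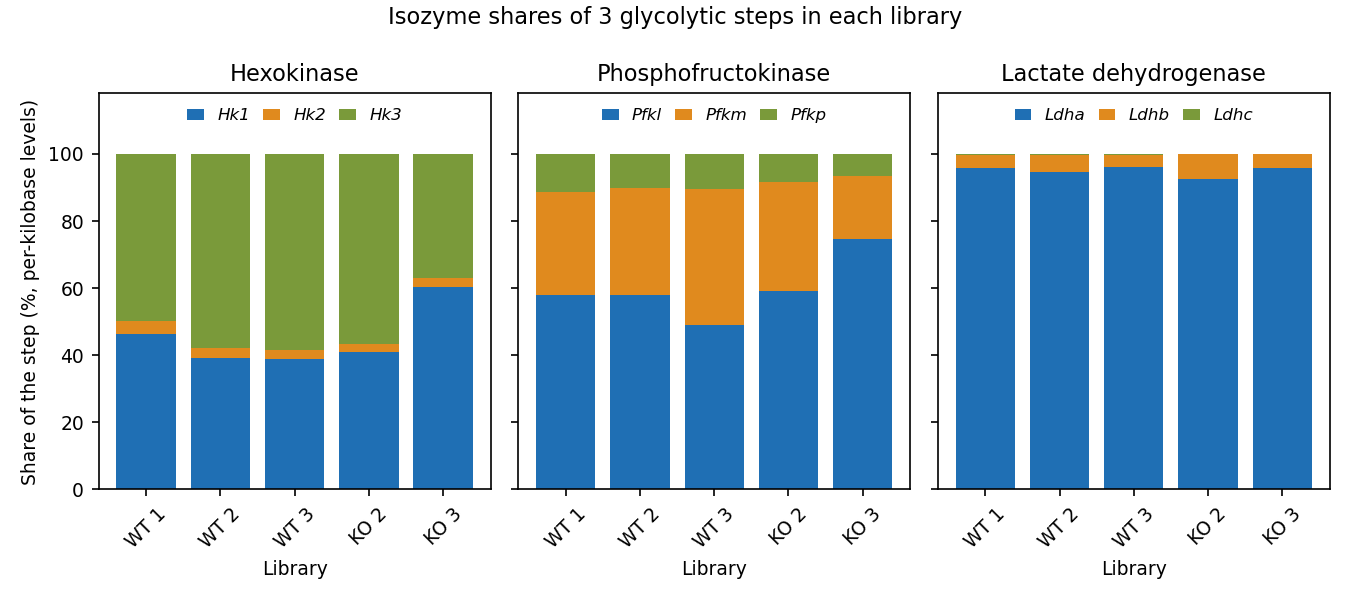
Share of each isozyme (%, from per-kilobase levels, stacked bars) in the hexokinase, phosphofructokinase and lactate dehydrogenase steps of each library. Isozymes with very minor shares are not drawn. KO 3 stands apart with 60.3% Hk1 and 74.6% Pfkl, while Ldha takes 92.6% to 96.1% of its step everywhere.

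Ratios of transcripts within a library do not depend on its scaling, though they can move with transcript composition, and 4 were compared as log2 ratios of normalized counts. Hk2 to Hk1 averaged -3.34 ± 0.12 over WT (SD, n = 3) and -3.83 ± 0.31 over KO libraries (SD, n = 2), a difference of -0.49, with both KO libraries below all WT libraries. Pfkl to Pfkp averaged 1.15 ± 0.16 over WT (SD, n = 3) and 1.93 ± 0.46 over KO libraries (SD, n = 2), a difference of 0.78, again without overlap. These 2 ratios reached the smallest p that 3 against 2 libraries allow (exact permutation test, two-sided, p = 0.1, and 0.2 after Benjamini-Hochberg adjustment over the 4). Ldha to Ldhb (-0.39) and Eno1 to Gapdh (-0.064) overlapped between the groups (exact permutation p = 0.5 and 0.8, adjusted 0.667 and 0.8). Ldhb, the isozyme that favours pyruvate formation, stood at 636 to 798 over the WT libraries, and was higher in KO 2 (1653) and KO 3 (891). Without KO 2 the difference of the Ldha to Ldhb ratio was 0.058, and without WT 2 that of Eno1 to Gapdh was 0.033. After a linear fit to GC content and transcript length was subtracted per library, the differences of Hk2 to Hk1 and of Pfkl to Pfkp shrank to -0.18 and 0.16, and their groups overlapped. Ldha to Ldhb was then at -0.29, with overlap, and Eno1 to Gapdh at -0.40, with both KO libraries below all WT libraries.

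Among the enzymes of the upper pathway, Pfkl was the one with the widest difference between genotypes. Its normalized read count was 3999, 4552 and 3405 in WT 1, WT 2 and WT 3, and 5763 and 10011 in KO 2 and KO 3. Both KO libraries exceeded all WT libraries, KO 3 by far more than KO 2. The KO mean was 198% of the WT mean (limma log2 fold change 0.94, SE 0.25, adjusted p = 0.0860), a difference that did not pass the threshold of 0.05. DESeq2 on the recovered reads gave 0.98 with an adjusted p of 0.00690, and edgeR an adjusted p of 0.0944. The log2 difference from WT was 0.54 in KO 2 (limma adjusted p = 0.299 with KO 2 alone) and 1.34 in KO 3 (limma adjusted p = 0.00498 with KO 3 alone), so the size of the difference rested on KO 3.

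Aldoa stood at 13968, 14982 and 14610 in WT and at 22858 in KO 2 and 17108 in KO 3. All WT values lay within a narrow band and both KO values above it (limma log2 fold change 0.45, SE 0.19, adjusted p = 0.165). Here KO 2 was the higher of the KO libraries, in contrast to Pfkl. KO 2 also held the adipocyte-type RNA, whose part was not tested. With the length and GC trend removed, the log2 difference of Aldoa from WT was 0.29 in KO 2 and -0.37 in KO 3, the latter below all WT libraries.

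Hk1, the constitutive hexokinase bound to mitochondria, was at 8928, 11105 and 9343 in WT, at 10256 in KO 2 and at 15021 in KO 3. Only KO 3 left the WT range (limma log2 fold change 0.35, SE 0.21, adjusted p = 0.307). Hk2 was at 951, 1109 and 848 in WT, and 839 and 904 in KO, with overlapping groups (-0.15, SE 0.21, limma adjusted p = 0.668). Gpi1 was at 20804, 26374 and 26907 in WT, inside that range in KO 2 (25729) and below it in KO 3 (17057), with a log2 fold change of -0.23 (SE 0.23, limma adjusted p = 0.538).

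In the lower pathway Ldha and Gapdh were higher in both KO libraries, by less than Pfkl. Ldha stood at 24062, 20460 and 23449 in WT and at 29389 and 29534 in KO. Its KO libraries were nearly equal, and the KO mean was 130% of the WT mean (limma log2 fold change 0.38, SE 0.18, adjusted p = 0.195, DESeq2 adjusted p = 0.0923). Gapdh, which makes NADH from glyceraldehyde phosphate, stood at 13719, 12308 and 13550 in WT and at 17377 and 14289 in KO (limma log2 fold change 0.26, SE 0.17, adjusted p = 0.358). KO 3 exceeded the highest WT library by a narrow margin.

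Pkm was at 26091, 31996 and 29286 in WT and at 30717 and 32590 in KO, with KO 2 inside the WT range (limma log2 fold change 0.12, SE 0.18, adjusted p = 0.680). The counts were per gene, so the M1 and M2 splice forms of Pkm were not told apart. Eno1 was at 12277, 15020 and 15071 in WT and at 18233 and 14188 in KO (0.19, SE 0.19, limma adjusted p = 0.533), where only KO 2 left the WT range. Pgk1, the kinase of the first ATP-yielding step, was at 1727, 1414 and 1790 in WT, at 1668 in KO 2 and at 1042 in KO 3 (-0.31, SE 0.24, limma adjusted p = 0.423). The KO libraries thus disagreed on Pgk1 and Gpi1, which were low in KO 3 alone.

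**Figure D3:**
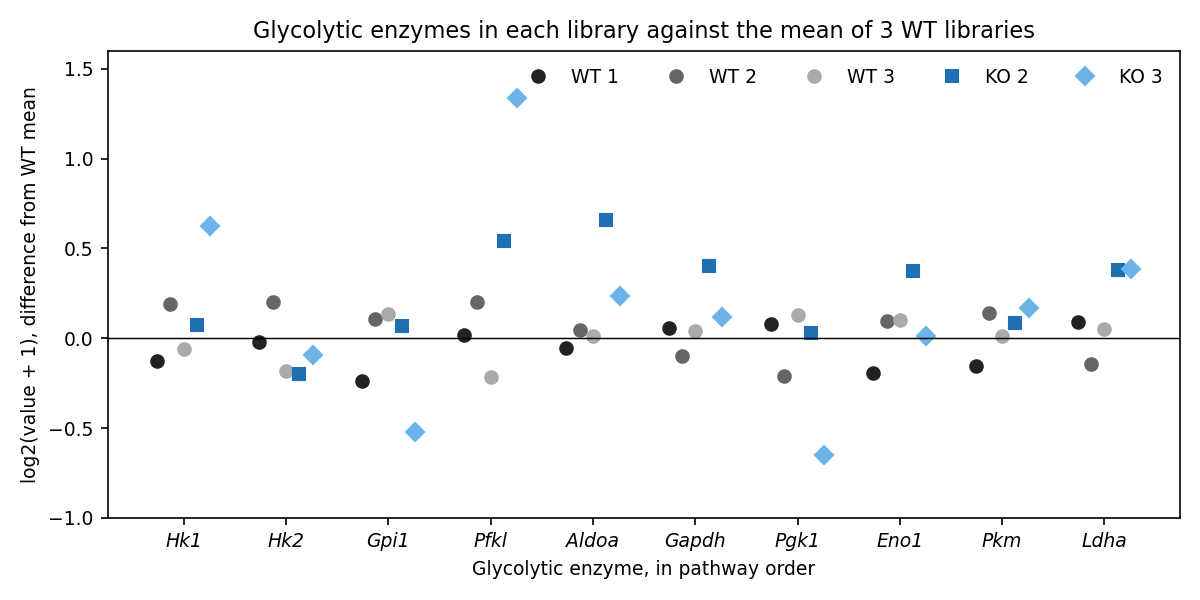
Difference of each library from the WT mean on the log2(value + 1) scale, for the 10 enzymes in pathway order (circles WT, square KO 2, diamond KO 3). Pfkl, Aldoa, Gapdh and Ldha have both KO points above all WT points, while Gpi1 and Pgk1 are low in KO 3 alone.

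Of the 10 enzymes, 0 passed a limma adjusted p of 0.05, where 0.00732% of all tested genes did (1 gene, Syncrip). At an unadjusted limma p under 0.05 there were 2 (Pfkl and Aldoa, both higher), or 20% against 27.8% of all tested genes. edgeR called 0 of the 10 (0.0146% of all genes tested by it) and DESeq2 called 1, Pfkl (19.3% of the genes with a DESeq2 adjusted p). With KO 3 as the lone KO library, assumed to vary like the WT libraries, limma called Pfkl alone, 1 of 10 against 26.6% of genes. Both KO values lay above all WT values for 4 enzymes (Pfkl, Aldoa, Gapdh and Ldha), or 40% against 23.9% of all tested genes, and below all WT values for 0, against 23.2%. Without WT 2 the count was 6 above (Hk1 and Pkm added) and 1 below (Pgk1), beside 29.2% and 28.8% of all tested genes. With KO 3 as the lone KO library it was 6 above and 2 below (Gpi1 and Pgk1), beside 40% and 38.3%.

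The median log2 fold change of the 10 was 0.23, beside 0.020 for all 13661 genes tested, with 7 of the 10 above 0. By size of change, Pfkl lay above 79.5% of tested genes and Aldoa above 47.5%, while Pkm lay above 13.8%. Summed over the 10 genes, normalized counts made up 0.693%, 0.738% and 0.708% of all counts in the WT libraries, and 0.865% in KO 2 and 0.797% in KO 3. Both KO sums thus exceeded all WT sums. The spread of the 10 log2 differences was wider in KO 3 (SD 0.56) than in KO 2 (SD 0.27) or in any WT library (SD at most 0.15).

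Transcript composition moved with these values. The enzymes were GC-rich, with a median GC content of 54.5% in their longest transcripts against 49.9% over the tested genes, and 9 of the 10 lay above that median. When a linear trend on transcript length and GC content was taken out of each library, the median log2 fold change of the 10 became -0.21, with 3 of the 10 above 0. Pfkl kept a positive value of 0.42 (limma adjusted p = 0.270) and Ldha one of 0.29 (limma adjusted p = 0.367). Hk1 (-0.13), Aldoa (-0.038), Eno1 (-0.34) and Pkm (-0.43) turned negative, with limma adjusted p of 0.241 to 0.934. After this correction both KO values lay above all WT values for Pfkl and Ldha, and below them for Hk1, Hk2 and Pkm, where 17.2% and 18.5% of all genes corrected in this way did so. Ldha had nearly equal KO values here as well (0.28 in KO 2 and 0.29 in KO 3, as log2 difference from WT), and Pfkl was again higher in KO 3 (0.62) than in KO 2 (0.21).

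**Figure D4:**
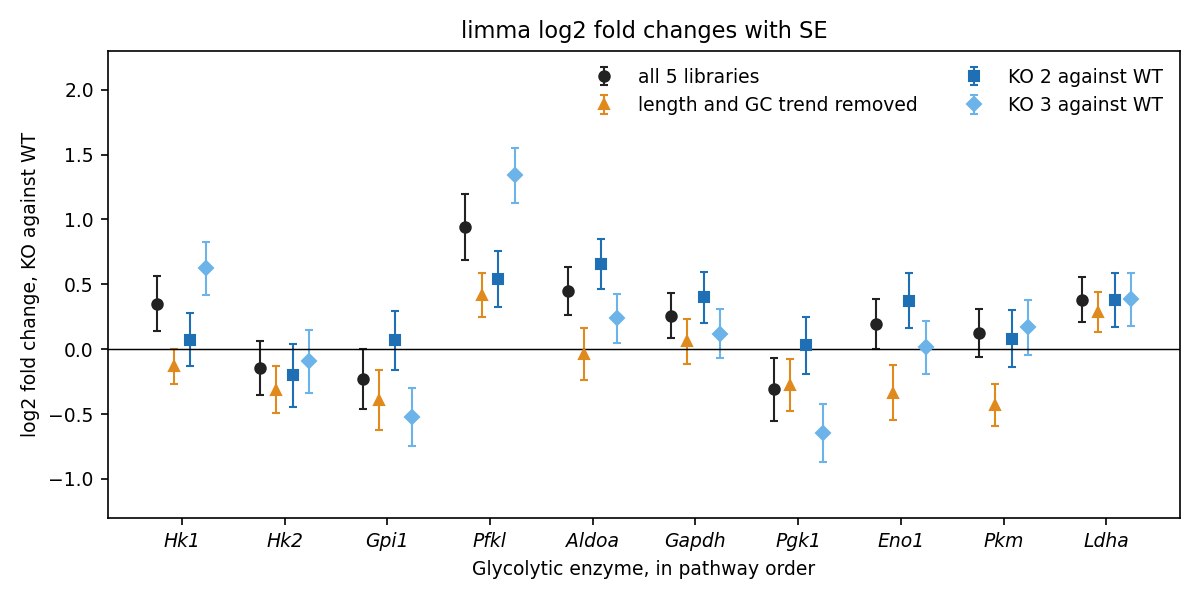
limma log2 fold changes of KO against WT (points) with SE (bars) for all 5 libraries, for the same after removal of the trend on length and GC content, and for each KO library alone against the 3 WT libraries. Pfkl, Ldha and Gapdh stay above 0 in all 4, from 0.42 to 1.34, 0.29 to 0.39 and 0.060 to 0.40, whereas Hk1, Aldoa, Eno1 and Pkm are below 0 once the trend is removed.

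Promoters of the enzymes were read for the core of the hypoxia response element, since HIFs are known regulators of this pathway. Windows of 250 bases before each RefSeq transcription start (GRCm38.p6) were searched on both strands for ACGTG or GCGTG, and overlapping matches were each counted. At least 1 of its windows held a match for 9 of the 10 enzymes (all but Gpi1), or 90% against 41.5% of all genes in the table. By window it was 13 of 17 against 38.6% of 32851. Both cores contain the letters CG, and these shares were not matched for GC content or for the number of windows per gene. A match describes these letters only and is not a binding site. The windows are shown for Pfkl, which had the widest difference, for Ldha, which was alike in both KO libraries, and for Pgk1, which was low in KO 3 alone. Capitals mark the matches.

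Pfkl, chr10:78009808-78010057, minus strand: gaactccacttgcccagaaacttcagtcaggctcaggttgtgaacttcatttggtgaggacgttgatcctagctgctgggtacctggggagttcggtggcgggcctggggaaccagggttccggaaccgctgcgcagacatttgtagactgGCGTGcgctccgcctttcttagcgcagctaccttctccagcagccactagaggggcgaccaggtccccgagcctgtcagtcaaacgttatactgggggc
Ldha (the first of its 2 starts), chr7:46845554-46845803, plus strand: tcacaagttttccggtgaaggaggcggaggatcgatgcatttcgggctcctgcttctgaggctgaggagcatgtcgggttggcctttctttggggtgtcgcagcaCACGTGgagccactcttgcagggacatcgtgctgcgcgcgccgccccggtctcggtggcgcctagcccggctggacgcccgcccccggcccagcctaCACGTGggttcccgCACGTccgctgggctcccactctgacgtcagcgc
Pgk1, chrX:106186850-106187099, plus strand: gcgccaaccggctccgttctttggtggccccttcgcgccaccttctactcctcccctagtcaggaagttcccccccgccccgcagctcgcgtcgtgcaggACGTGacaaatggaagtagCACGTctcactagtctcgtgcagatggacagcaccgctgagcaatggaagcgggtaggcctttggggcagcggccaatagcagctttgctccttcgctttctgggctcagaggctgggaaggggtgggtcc

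The Pfkl window held 1 match, the Ldha window 5 and the Pgk1 window 2. In the Ldha window 4 of the 5 came from 2 copies of the palindrome CACGTG, each read on both strands.

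In GENCODE M21 (GRCm38), Pfkl spans bases 77986947 to 78010083 of chromosome 10 (minus strand), Ldha bases 46841475 to 46855627 of chromosome 7 (plus strand) and Pgk1 bases 106187100 to 106203699 of chromosome X (plus strand), all protein-coding. The printed Pfkl and Ldha windows lie inside these spans, since the RefSeq starts used for them lie within the GENCODE genes. The Pgk1 window ends just before its span. Several members have near-identical copies elsewhere in the genome, so their counts depend on how reads that matched more than 1 place were handled, which was not given in the sources used here. Among GENCODE M21 transcripts, copies that matched a member's longest coding transcript at 95% identity or more over at least 300 bases numbered 71 for Gapdh, 4 for Pgk1, 3 for Eno1, 2 for Ldha and 1 each for Gpi1 and Pkm, and 0 for Hk1, Hk2, Pfkl and Aldoa. Most of these copies are not rows of the table. Eno1b, which matched Eno1 at 99.5% over 1652 bases, had counts 0.536% to 2.74% above those of Eno1 in every library (18411 in KO 2 against 18233 for Eno1), so the reads of these symbols could not be told apart. Gm12070, the only Gapdh copy in the table, had at most 6.94.

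The rest of the pathway was followed in 8 lists of genes, of which 93 genes were tested, and limma called 0 of them at an adjusted p of 0.05 (25 of them had an unadjusted p under 0.05, edgeR called 0, and DESeq2 called 10 higher and 8 lower of the 89 with a DESeq2 adjusted p). The share at an unadjusted p under 0.05, 26.9%, was near that of all tested genes (27.8%), and the DESeq2 share, 20.2%, near that of all genes with a DESeq2 adjusted p (19.3%). Both KO values lay above all WT values for 24 of the 93 (25.8%) and below them for 22 (23.7%), near the 23.9% and 23.2% of all tested genes, and the count of each list is a description beside these shares. Among other glycolytic steps and isozymes, 16 of 21 were tested, 3 had both KO values above and 2 both below all WT values, and the median log2 fold change was 0.016. Adpgk, which phosphorylates glucose with ADP, was at 6316 and 3902 in KO, where WT ran from 6848 to 10491 (limma log2 fold change -0.87, SE 0.27, adjusted p = 0.0993, DESeq2 adjusted p = 0.0245). Ldhb was at 0.77 (SE 0.28, limma adjusted p = 0.129), Tpi1, the triose phosphate isomerase, at 0.17 (limma adjusted p = 0.503) and the testis-type Ldhc, which is scarce here, at -1.08 (limma adjusted p = 0.331). With the trend removed, Adpgk, Ldhb and Ldhc were at -0.81, 0.58 and -0.89 and Tpi1 at -0.062. Pgam1, the mutase between Pgk1 and Eno1 and named after its values were seen, was at 1387 and 916 in KO, where WT ran from 1235 to 1435, and like Pgk1 it was low in KO 3 alone.

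Of the glucose and lactate transporters 9 were tested (3 above, 3 below, median -0.37). Slc2a1, the basal glucose transporter GLUT1, stood at 683 and 1280 in KO, where WT ran from 335 to 599 (limma log2 fold change 0.97, SE 0.35, adjusted p = 0.124). Slc2a3, which encodes GLUT3 and is known in myeloid cells, stood at 2720 and 2172 in KO, where WT ran from 3174 to 4062 (-0.61, SE 0.19, limma adjusted p = 0.103). DESeq2 called both (adjusted p = 0.0426 and 0.0342). Bsg, the chaperone of lactate transporters, was at 0.45 and the monocarboxylate transporter Slc16a7 at -0.48 (limma adjusted p = 0.138 and 0.410). After removal of the length and GC trend, Slc2a1 stayed at 0.67 and Slc2a3 at -0.46, while Bsg was at -0.079 and Slc16a7 at 0.36.

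Of the regulators of glycolytic flux, 16 of 18 were tested (4 above, 5 below, median -0.026). Egln1 and Egln2, prolyl hydroxylases that mark HIF for destruction, had the highest log2 fold changes among regulators with no overlap between the groups. Egln1 stood at 276, 510 and 446 in WT and at 784 and 1242 in KO (limma log2 fold change 1.31, SE 0.33, adjusted p = 0.0818, DESeq2 adjusted p = 0.00525). Egln2 stood at 1596, 1996 and 1824 in WT and at 2731 and 4160 in KO (0.91, SE 0.22, limma adjusted p = 0.0818, DESeq2 adjusted p = 0.00455). All KO values exceeded all WT values, and KO 3 was the higher library, as for Pfkl. With the trend removed Egln1 was at 0.86 and Egln2 at 0.033. Pfkfb2, which makes the activator of phosphofructokinase, was at -0.83 and Mlx, partner of glucose-sensing factors, at -0.66 (limma adjusted p = 0.192 and 0.187), and at -0.53 and -0.69 with the trend removed. Hif1a, which encodes a HIF subunit and was named after its values were seen, stood at 902 and 952 in KO, where WT ran from 1255 to 1424. Its limma log2 fold change was -0.55 (SE 0.19, adjusted p = 0.112, DESeq2 adjusted p = 0.0357), and 0.053 with the trend removed.

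Hypoxia-inducible genes outside glycolysis (13 of 14 tested) had 4 members above and 3 below all WT values, near the shares of all tested genes, and a median of 0.062. Ddit4, an inhibitor of mTOR signalling, was at 1.17 and Higd1a at 0.57 (limma adjusted p = 0.129 and 0.127), whereas Ndrg1 was at -0.81 and the mitophagy receptor Bnip3l at -0.61 (limma adjusted p = 0.105 and 0.101). DESeq2 called Ddit4, Ndrg1 and Bnip3l of these 4 (adjusted p = 0.0484, 0.0312 and 0.0285). Without the length and GC trend, Ddit4 was at 0.62, Higd1a at 0.47, Ndrg1 at -0.86 and Bnip3l at -0.034.

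At the branch points the pentose phosphate pathway, which makes NADPH and ribose from glucose 6-phosphate, had 8 genes tested (2 above, 2 below, median -0.10). Pgls, the lactonase of its oxidative arm, stood at 3552, 3765 and 3703 in WT and at 5712 and 9194 in KO (limma log2 fold change 0.98, SE 0.22, adjusted p = 0.0815, DESeq2 adjusted p = 0.00130). G6pdx, which opens that arm, stood at 7033 and 3288 in KO, where WT ran from 7864 to 10575 (-0.95, SE 0.30, limma adjusted p = 0.104, DESeq2 adjusted p = 0.0420). Rpe, an epimerase of the non-oxidative arm, stood at 974 and 510 in KO, where WT ran from 1495 to 2311 (-1.39, SE 0.31, limma adjusted p = 0.0815, DESeq2 adjusted p = 0.00203). Tkt was at 0.21 (limma adjusted p = 0.499). Without the trend, Pgls, G6pdx, Rpe and Tkt stood at 0.44, -1.14, -0.61 and -0.093.

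Among genes of pyruvate entry into mitochondria (14 tested, 2 above, 3 below, median -0.087), Mpc2, a subunit of the mitochondrial pyruvate carrier, was at 2772 and 1980 in KO, where WT ran from 1196 to 1459 (limma log2 fold change 0.79, SE 0.21, adjusted p = 0.0859, DESeq2 adjusted p = 0.01003). Dlat was at 0.17, and Dld and Pdpr were at -1.01 and -0.51 (limma adjusted p = 0.538, 0.114 and 0.313). For gluconeogenesis 4 of 7 genes were tested (3 above, 0 below, median 0.38), with Pcx at 0.68 and G6pc3 at 0.43 (limma adjusted p = 0.161 and 0.157). For the serine, glycogen and glycerol branches (13 tested, 3 above, 4 below, median -0.11), Gbe1, the glycogen branching enzyme, stood at 1710, 1573 and 1656 in WT and at 922 and 629 in KO (-1.11, SE 0.22, limma adjusted p = 0.0815, DESeq2 adjusted p = 5.6e-04). Phgdh, which diverts 3-phosphoglycerate to serine, stood at 4231 and 7697 in KO, where WT ran from 2671 to 3359 (0.88, SE 0.26, limma adjusted p = 0.0941, DESeq2 adjusted p = 0.0131). Psat1 was at 0.23 and Gfpt1 at -0.44 (limma adjusted p = 0.383 and 0.194). Several of these values shrank or turned once the length and GC trend was taken out, with Pcx at 0.11, G6pc3 at -0.12, Dld at -0.34, Phgdh at 0.36, Gbe1 at -0.57 and Gfpt1 at -0.070, while Mpc2 was at 1.27, Dlat at 0.36, Pdpr at -0.41 and Psat1 at 0.35.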

How the data were processed

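Bulk RNA of 5 sorted HSC libraries was sequenced (3 WT, 2 KO), and groups and numbers came from the labels. The deposited values are a signal per gene, that is, gene read counts that the authors divided by a size factor of each library; per the labels, the submitters' notes name STAR, featureCounts, DESeq2 and mm10. In every library 100% of values were whole multiples of 1 read (tolerance 0.01), so reads were recovered for the count tests. The authors' table of fold changes and p-values was not used.

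Genes that reached 10 in no fewer than 2 libraries (13661 of 24046) were compared with limma 3.58.1 (R 4.3.3, trend) on log2(value + 1), with Benjamini-Hochberg adjustment over all of them and a threshold of 0.05. Fold changes on this scale understate those of low genes. edgeR 4.0.16 (quasi-likelihood) and DESeq2 1.42.0 on recovered reads were alternatives, as were a pseudocount of 10, no filter, TMM and upper-quartile scaling, a replicate block, removal, per library, of a linear fit to GC content and log2 length (13015 genes matched GENCODE M21), and leaving out each library. Ratios were tested with scipy 1.17.1, and transcript copies were found with blastn 2.17.0. Total reads were 12539599 to 22779536 per library, and the 10 enzymes had 595 to 36867 reads each.

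The enzymes and gene lists were chosen with earlier results of these data known. Besides the 10 enzymes and Syncrip, the text names from each pathway list the genes past the threshold and otherwise the 2 highest and 2 lowest log2 fold changes among genes whose KO values both lie beyond all WT values, plus isozymes compared with an enzyme.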

Additional observations from a re-analysis of the deposited data

How the results depend on the processing

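The count of genes called by limma was 1, and it was 2 with a pseudocount of 10, 12 without the filter, 2 in edgeR, 2290 in DESeq2, 6 with the replicate block and 0 once the trend on length and GC content was removed (2253 at an unadjusted p under 0.05). Leaving out 1 library gave 0 to 3560, with 0 without any 1 of the WT libraries (2160 to 3050 at an unadjusted p under 0.05), 3560 without KO 2 and 11 without KO 3. The replicate block left 0 enzymes called (Pfkl 0.95, limma adjusted p = 0.210). The numbers are shared by only 2 pairs of libraries. Their deviations correlated at -0.15. This is a single value, because each group was centred on its 2 libraries and both pairs must then give the same number. Nothing in the labels ties the numbers to a litter or day. Of the enzymes, 0 were called, 1 in DESeq2 and 0 to 1 without a library (Pfkl, without KO 2), and 2 stood at an unadjusted p under 0.05, a count chosen after seeing the data.

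The median log2 fold change of the enzymes, 0.23, became -0.21 with the trend removed and ranged from 0.14 (without KO 2) to 0.26 (without WT 3). Hk1 (-0.13), Aldoa (-0.038), Eno1 (-0.34) and Pkm (-0.43) changed sign with the trend removed, and Gpi1 (0.069) and Pgk1 (0.029) without KO 3, as against -0.52 and -0.65 without KO 2. Hk2, Pfkl, Gapdh and Ldha kept their sign under all 13 alternatives. Enzymes with both KO values beyond all WT values numbered 4, and 5 to 8 without a library (7 without WT 2, 8 without KO 2). Without a library the ratio differences ran from -0.72 to -0.27 for Hk2 to Hk1, 0.46 to 1.10 for Pfkl to Pfkp, -0.84 to 0.058 for Ldha to Ldhb and -0.19 to 0.033 for Eno1 to Gapdh. With the trend removed, an alternative chosen after seeing the data, they were -0.18, 0.16, -0.29 and -0.40. The cause of these shifts was not tested. There were only 2 KO libraries, of unequal depth, and a p above 0.05 does not show equal levels.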

Other observations

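Several genes of glucose and lipid handling were found in KO 2 and hardly elsewhere (named after their values were seen). Gpd1, which links glycolysis to glycerol, stood at 5012 normalized counts in KO 2 and at 24.9 or less in the other libraries. Pck1, the entry enzyme of gluconeogenesis, stood at 1263 in KO 2 and at 0 in the others. The insulin-responsive glucose transporter Slc2a4 reached 505 in KO 2, was listed at 0 for KO 3 and did not pass 92.6 in any WT library. Pdk4, an inhibitor of pyruvate dehydrogenase, stood at 399.9 in KO 2 against 25.0 or less, and Mlxipl, a glucose-sensing transcription factor, at 209 against 9.2 or less. In the same library adipocyte and brown adipocyte markers made up 0.164% of all normalized counts against 0.00116% to 0.00395% in the others, led by Fabp4 at 7687, and Ucp1 stood at 5622 in KO 2 and at 0 elsewhere. The part of adipocyte RNA in these values was not tested.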
